A study of Mus musculus with 18 samples.

Results

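The transcription factors that set up and maintain the astrocyte lineage were followed in cultured mouse astrocytes, glial cells that feed neurons and clear transmitter around them. They were the 10 genes Sox9, Sox2, Sox8, Nfia, Nfib, Nfix, Pax6, Lhx2, Hopx and Zbtb20, out of 26301 genes in the count table. Their Entrez IDs there are, in this order, 20682, 20674, 20681, 18027, 18028, 18032, 18508, 16870, 74318 and 56490. The list was made by symbol and not by a rule on values, but with earlier results of these data known. All 10 were among the 16539 genes kept by the filter on low counts and tested. Total RNA had been sequenced from 18 libraries in 6 groups of 3. Astrocytes from newborn (P0) mouse cortex were cultured for about 2 weeks and moved to serum-free N2 medium. They were then kept alone, or given P0 hippocampal neurons from TdTomato-positive mice, for 2, 4 or 7 days. The labels name no mutation or drug. TdTomato is a red fluorescent protein, and the labels give it to the mice that supplied the neurons. Cells were detached and sorted on TdTomato, and the gate for negative cells was set on cultures without neurons. The labels do not say which promoter drives TdTomato, or that replicates were separate animals. The 3 libraries of a group carry different dates, and p-values from fits of group means alone thus reflect how much cultures of different dates varied. Libraries with the same replicate number carry the same date in their labels, and the co-culture and the astrocytes alone of one number and day are called partners, or a pair. The title of the series asks which astrocyte transcripts are regulated by contact with neurons.

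As background, SOX9 and the nuclear factor I proteins NFIA, NFIB and NFIX act at the switch by which neural progenitors begin to make astrocytes, and they go on binding astrocyte genes afterwards. SOX2, PAX6 and LHX2 are known from the progenitors themselves and remain in part of the astrocytes of the mature brain. HOPX marks some radial glia and astrocytes, and ZBTB20 promotes the making of astrocytes in cortex.

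Library totals ran from 3242459 to 32623556 reads. In 2 libraries few genes were read: replicate 1 of astrocytes alone at day 2, with a read in 66.2% of tested genes, and replicate 1 of the day 7 co-culture, with 83.1%. They are called the low-complexity libraries, and the other 16 had 85.4% to 99.1%. The first held only 0 to 19 reads of each of the 10 factors, so its values are coarse, and 3 reads there correspond to 20.2 CPM (counts scaled to library size by TMM). In the other 16 libraries 3 reads correspond to 0.0743 to 0.179 CPM, and such limits and intervals cover counting error only. The astrocyte label was checked against 10 astrocyte markers, whose summed level over these 16 libraries was 1000.3 to 4928 CPM in astrocytes alone and 1300 to 5769 CPM in co-culture. Among them S100b had a median of only 0.401 CPM. Markers of endothelial and mural cells summed to 129 to 752 CPM alone and 145 to 1221 CPM in co-culture. The 1221 CPM came in the day 2 co-culture of replicate 1, where astrocyte markers summed to 1300 CPM. Acta2 alone made up 1122 CPM of it, and 4 of the 10 endothelial and mural markers were at 0 there. Over the 16 libraries the medians were 237 CPM for Acta2, 67.5 CPM for Pdgfrb and 0 CPM for Pecam1. Cldn5 and Kcnj8 had 0 reads. Markers of neurons summed to 158 to 439 CPM alone and 203 to 374 CPM in co-culture, with ranges that overlapped. The neuronal markers differed widely among themselves, with medians from 0 CPM, as for Snap25, to 113 CPM for Stmn2. Between these, the median was 0.0408 CPM for Dcx, 2.50 CPM for Gap43 and 106 CPM for Map2. In RNA from many cells, fewer cells of a type and less RNA per cell cannot be told apart.

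No factor passed the test in any comparison of co-culture with astrocytes alone. With edgeR's quasi-likelihood test and Benjamini-Hochberg adjustment, 0 of the 10 were called at day 2, day 4, day 7 or over the average of the days, and 0% of all genes were called. At an unadjusted p under 0.05 the count was again 0 of 10 in each of these comparisons. The shares of all genes below that level were 2.35% at day 2, 0.369% at day 4, 9.37% at day 7 and 4.17% for the average. DESeq2 also called 0 of the 10 in each, and of 16539 genes it called 22 at day 2, 0 at day 4, 5 at day 7 and 0 over the average. With the replicate number as a block, edgeR called 0 of the 10 as well. Of all 16539 genes it then called 1 at day 7 and 0 in the other comparisons. With the block and the 16 libraries it called 16, 0, 18 and 0 of 17092 genes, in the same order. At no day did the 3 co-culture values of a factor lie wholly above or below the 3 values of astrocytes alone, a pattern shown by 5.53%, 5.97% and 9.87% of tested genes at days 2, 4 and 7. 

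**Figure D1:**
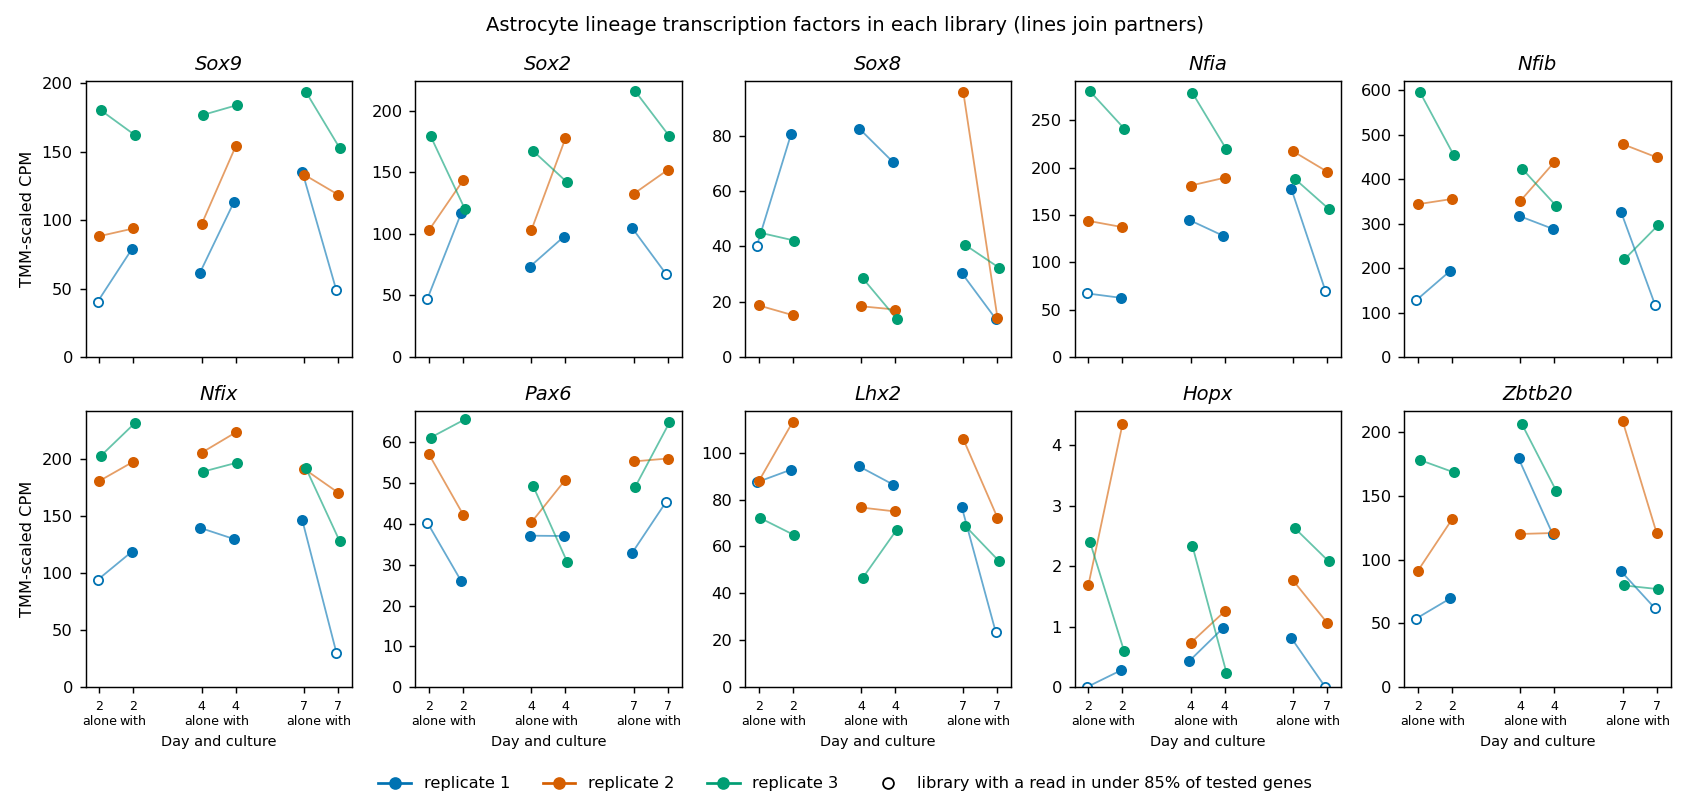
TMM-scaled counts (CPM, vertical axis from 0, its own range for each gene) of the 10 factors in every library, by day and culture. Points are libraries coloured by replicate number, open points are the 2 low-complexity libraries, and lines join partners. For Sox9 the points of replicate 3 lie at 153 to 194 CPM, at or near the top of every group.

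Per length of exon, Sox2 and Nfib were the most abundant of the 10 factors. Median levels over the 16 libraries, in CPM per kb of annotated exon, were 66.7 for Sox2, 37.6 for Nfib, 32.5 for Sox9, 28.01 for Nfix, 22.5 for Lhx2, 19.4 for Nfia, 12.03 for Pax6, 10.5 for Sox8, 4.46 for Zbtb20 and 0.765 for Hopx. Sox2 stood above Nfib in 16 of 16 libraries, Nfia above Pax6 in 16 and Zbtb20 above Hopx in 16. The order of the other neighbours changed between libraries. It changed most often for Nfix and Lhx2, with Nfix higher in 10 of 16, Lhx2 and Nfia (11 of 16) and Pax6 and Sox8 (9 of 16). Sox9 was above Nfix in 12, Nfib above Sox9 in 13 and Sox8 above Zbtb20 in 15. These levels divide by all annotated exons of a gene, which for Zbtb20 span 27.0 kb, so a gene with many alternative exons comes out lower.

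The SOX group was described first. SOX9 and SOX8 belong to the SoxE subfamily, and SOX2 to SoxB1, the group of SOX1 and SOX3. In astrocytes alone Sox9 stood at 40.3, 88.3 and 180.2 CPM in replicates 1, 2 and 3 at day 2, at 61.6, 97.1 and 177 CPM at day 4, and at 135, 133 and 194 CPM at day 7. With neurons it stood at 78.6, 93.9 and 162 CPM at day 2, at 113, 154 and 184 CPM at day 4, and at 48.6, 119 and 153 CPM at day 7. At day 4 each co-culture library was above its partner, except under upper-quartile scaling, and at day 7 each was below it. The groups overlapped at every day. Nor did the fitted differences pass. The log2 fold change of Sox9 was 0.43 (SE 0.49) at day 4 and -0.53 (SE 0.49) at day 7, with adjusted p of 1.00 and 0.804 in edgeR. The day 4 value corresponds to a 95% interval from 0.664-fold to 2.73-fold. The test of the difference between the effects at day 7 and day 4 gave -0.96 (SE 0.69, adjusted p 1.00).

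Sox2 was at 47.1, 103 and 179 CPM alone and 117, 144 and 120.3 CPM with neurons at day 2. At day 4 it was at 73.2, 103 and 167 CPM alone and 97.6, 178 and 142 CPM with neurons, and at day 7 at 105, 133 and 216 CPM alone and 67.4, 152 and 179 CPM with neurons. Of the 9 pairs, 5 had more Sox2 in the co-culture, and in replicate 3 the co-culture was lower on all 3 days. Averaged over the days the fitted log2 difference of Sox2 was 0.08 (SE 0.26), with an interval from 0.727-fold to 1.53-fold. For Sox9 this average was -0.03 (SE 0.28), from 0.653-fold to 1.48-fold. The span of the gene for the long RNA Sox2ot overlaps Sox2 on the same strand. Whether their exons share bases was not examined, and reads in any shared part could not be assigned by strand. The table gives 17557 reads to Sox2ot and 60882 to Sox2 over the 16 libraries.

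Sox8 behaved unlike the other SOX genes. Its levels in astrocytes alone were 40.3, 18.7 and 44.9 CPM at day 2, 82.7, 18.3 and 28.5 CPM at day 4, and 30.4, 95.8 and 40.6 CPM at day 7. With neurons they were 80.7, 15.1 and 42.1 CPM at day 2, 70.4, 17.2 and 13.8 CPM at day 4, and 13.8, 14.2 and 32.3 CPM at day 7. The co-culture was below its partner in 8 of 9 pairs, and the exception was the pair with 6 Sox8 reads in the low-complexity library of astrocytes alone. In the 7 pairs without a low-complexity library it was lower in 7 of 7, with differences from -2.75 to -0.09 on the log2 scale. A direction held over these 7 pairs was seen in 1 of the 10 factors going down and 0 going up, against 1.37% and 1.38% of all tested genes. Sox8 was also lower in 7 of 7 under median-ratio and upper-quartile scaling. The largest of these differences, in replicate 2 at day 7, was 95.8 CPM alone against 14.2 CPM with neurons, or 1791 against 573 reads.

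The difference in Sox8 did not pass the test. At day 7 the fitted log2 fold change was -1.46 (SE 0.72, adjusted p 0.540 in edgeR), which leaves an interval from 0.127-fold to 1.03-fold. Over the average of the days it was -0.45 (SE 0.42). With the replicate number as a block and the 16 libraries it was -0.59 (SE 0.36), also not called. Sox8 is also a gene of oligodendrocytes. The oligodendrocyte markers summed to 15.7 to 39.2 CPM alone and 18.6 to 53.5 CPM with neurons, and Sox10, the related SoxE gene of that lineage, had 0 to 19 reads in a library and was not tested. Of its other factors, Olig1 was at 26.5 to 358 CPM over the 16 libraries, with a median of 107, and Olig2 at 7.78 to 82.0 CPM, with a median of 35.7. Of the 5 oligodendrocyte factors tested, 4 had fitted values below 0 at day 7, as Sox8 did. Of the 5, 2 had an unadjusted p under 0.05 in edgeR, against 9.37% of all genes, and 0 were called. The summed oligodendrocyte markers went the other way at day 7. They were 15.7, 21.4 and 26.8 CPM alone in replicates 1, 2 and 3. With neurons they were 71.9 (in the low-complexity library), 21.8 and 33.3 CPM. Whether such cells had a part in the Sox8 values was not tested. The span of an antisense gene, 2810468N07Rik, overlaps an exon of Sox8, and this gene has no entry of its own in the table.

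The promoters of Sox8 and Sox2 are printed because their levels took different courses over the libraries. They are the 250 bases upstream of the annotated start in RefSeq on GRCm38.p6, 5′ to 3′ on the strand of the gene, a later build than the mm9 to which the reads were aligned. Capitals mark matches on either strand to 4 short motifs: ACAAAG, bound by SOX proteins, TTGGCA, part of the site of nuclear factor I, the CCAAT box, and the GC box GGGCGG.
Sox8, chr17:25570687-25570936, minus strand: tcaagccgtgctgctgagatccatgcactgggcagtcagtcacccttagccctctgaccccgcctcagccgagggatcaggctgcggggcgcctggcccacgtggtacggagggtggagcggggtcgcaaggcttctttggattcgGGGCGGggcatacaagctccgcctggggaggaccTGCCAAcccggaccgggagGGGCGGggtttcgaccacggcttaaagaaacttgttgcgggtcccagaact
Sox2, chr3:34649745-34649994, plus strand: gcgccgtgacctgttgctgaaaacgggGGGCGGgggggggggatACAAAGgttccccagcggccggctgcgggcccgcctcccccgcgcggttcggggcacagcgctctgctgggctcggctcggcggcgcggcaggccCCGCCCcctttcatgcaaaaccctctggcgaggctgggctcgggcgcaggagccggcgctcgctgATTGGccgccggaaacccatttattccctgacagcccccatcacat
The Sox8 window holds 1 TTGGCA match, as its reverse complement, and 2 GC boxes. The Sox2 window holds 1 ACAAAG, 1 CCAAT box and 2 GC boxes. Of all 32851 promoter windows of this length, 16.5% hold ACAAAG, 12.3% TTGGCA, 33.8% a CCAAT box and 32.7% a GC box, so such matches are common, and the minus-strand CCAAT box, ATTGG, can share letters with TTGGCA. Promoter windows were matched for 8 of the 10 factors, 14 windows in all, and among these ACAAAG was found in 3, TTGGCA in 1, a CCAAT box in 8 and a GC box in 4. No expression result was tested against these matches.

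Counted against Sox9 in the same library, Sox8 varied more than Sox2. For every 100 reads of Sox9 there were 7.48 to 134 reads of Sox8 over the 16 libraries, a 17.95-fold range, and 74.2 to 153 reads of Sox2, a 2.06-fold range. Profiles were then compared by the root mean square difference of log2 CPM, each gene centred on its own mean, among 8929 tested genes whose mean log2 CPM was at least 3. Sox2 was the factor most like Sox9, at 0.31, in place 57, and the closest genes were Abcd3 and Smad5 at 0.22 and 0.23. For Sox8 the closest genes were Dusp6 at 0.38 and Sgk1 at 0.40, and its closest factor was Lhx2 at 0.91, in place 1522. Dusp6 encodes a phosphatase of the ERK pathway and Sgk1 a kinase induced by glucocorticoids. Like Sox8, Dusp6 in replicate 2 was at 96.6 CPM in astrocytes alone at day 7 and at 16.1 to 27.8 CPM in the other 5 libraries. For the other factors the 2 closest genes were Tspan3 and Tubb4a for Sox2 (0.23 and 0.24), Fnip2 and Cdc37l1 for Nfia (0.24 and 0.25), Serbp1 and Rad50 for Nfib (0.19 and 0.19), and Eif4g3 and Sptbn1 for Nfix (0.17 and 0.19). They were St13 and Hdhd2 for Pax6 (0.19 and 0.24), Bicd2 and Klf6 for Lhx2 (0.20 and 0.20), Ubn2 and Kmt2c for Zbtb20 (0.17 and 0.18), and Cep19 and Ggact for Hopx (0.63 and 0.65). Nfib was the closest factor to Nfia, Nfix, Pax6 and Zbtb20, in places 97, 453, 244 and 179. These likenesses describe 16 libraries that share dates and scaling, and Sox8's own spread around its mean was 0.94.

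**Figure D2:**
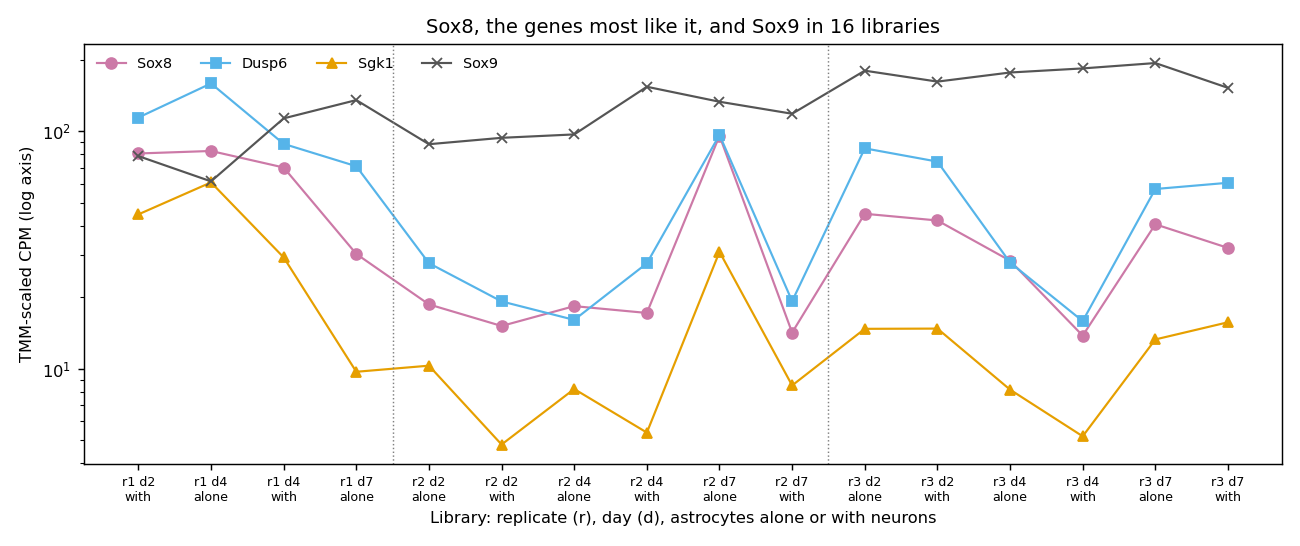
TMM-scaled CPM on a log axis of Sox8, of Dusp6 and Sgk1, the genes most like it, and of Sox9, in the 16 libraries ordered by replicate, day and culture. Sox8 and Dusp6 reach 95.8 and 96.6 CPM in the day 7 astrocytes alone of replicate 2 and stand at 14.2 and 19.2 CPM in its partner, while Sox9 is at 133 and 119 CPM there.

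The nuclear factor I genes were all well expressed, and their values overlapped between cultures at every day. Nfia, the member with the best known part in the onset of astrocyte formation, was at 67.2, 144 and 281 CPM alone and 62.5, 137 and 241 CPM with neurons at day 2. At day 4 it was at 145, 181 and 279 CPM alone and 128, 189 and 219 CPM with neurons, and at day 7 at 178, 217 and 188 CPM alone and 69.9, 196 and 156 CPM with neurons. The co-culture was lower in 8 of 9 pairs, with replicate 2 at day 4 as the exception, and in the 7 pairs without a low-complexity library the differences ran from -0.35 to 0.06 on the log2 scale. The fitted average was -0.29 (SE 0.28), with an interval from 0.542-fold to 1.24-fold.

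Nfib, which overlaps with Nfia in function, had the most reads of the 10. It was at 128, 344 and 597 CPM alone and 194, 356 and 454 CPM with neurons at day 2, at 318, 351 and 424 CPM alone and 289, 439 and 340.2 CPM with neurons at day 4, and at 327, 479 and 219.6 CPM alone and 117, 449 and 297 CPM with neurons at day 7. The co-culture was higher in 4 of 9 pairs, and the fitted average was -0.13 (SE 0.29). Nfix, the third of the group, was at 94.1, 181 and 203 CPM alone and 119, 198 and 232 CPM with neurons at day 2, at 139.8, 206 and 189 CPM alone and 129.9, 223 and 197 CPM with neurons at day 4, and at 147, 192 and 193 CPM alone and 30.3, 171 and 128 CPM with neurons at day 7. Every co-culture was above its partner at day 2, except under upper-quartile scaling, and below it at day 7. The fitted changes were 0.15 (SE 0.46) and -0.69 (SE 0.46), and the difference between them was -0.84 (SE 0.65, adjusted p 0.957 in edgeR). Without the low-complexity libraries the day 7 value of Nfix was -0.30 (SE 0.32). Nfic, the remaining gene of the family, had 69.8 to 139 CPM over the 16 libraries.

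Pax6, a paired-box factor, was the only one of the 10 that was higher in 3 of 3 co-cultures at day 7. Its levels were 40.3, 57.0 and 61.2 CPM alone and 25.9, 42.3 and 65.6 CPM with neurons at day 2. At day 4 they were 37.1, 40.4 and 49.3 CPM alone and 37.04, 50.8 and 30.7 CPM with neurons. At day 7 they were 32.8, 55.3 and 49.1 CPM alone and 45.4, 56.01 and 64.9 CPM with neurons. The smallest of the 3 differences at day 7 was 0.02 on the log2 scale, and under median-ratio or upper-quartile scaling Pax6 was not higher in 3 of 3 pairs. The fitted change at day 7 was 0.28 (SE 0.35) and the average -0.04 (SE 0.20), from 0.724-fold to 1.31-fold. The antisense gene Pax6os1 had 308 reads over the 16 libraries, against 20950 for Pax6.

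Lhx2 is a LIM homeobox factor known for holding back the formation of astrocytes from progenitors. It was at 87.4, 87.7 and 72.1 CPM alone and 92.8, 113 and 64.8 CPM with neurons at day 2, at 94.1, 76.6 and 46.6 CPM alone and 86.3, 75.0 and 67.2 CPM with neurons at day 4, and at 77.0, 106 and 68.9 CPM alone and 23.5, 72.3 and 53.7 CPM with neurons at day 7. At day 7 each co-culture was below its partner, though 72.3 CPM in replicate 2 was above 68.9 CPM in replicate 3 of astrocytes alone. The fitted change there was -0.75 (SE 0.37, adjusted p 0.545 in edgeR). Without the low-complexity libraries, and with the replicate block, its day 7 value was -0.39 (SE 0.26).

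Zbtb20, a zinc finger factor, was at 53.8, 91.3 and 178 CPM alone and 69.6, 132 and 168 CPM with neurons at day 2, at 179, 120.0 and 206 CPM alone and 119.8, 121 and 154 CPM with neurons at day 4, and at 90.9, 208 and 79.7 CPM alone and 61.7, 120.4 and 76.8 CPM with neurons at day 7. The fitted average was -0.26 (SE 0.26), and the day 7 change -0.55 (SE 0.44). Hopx, a small homeodomain protein that does not bind DNA, was close to the floor. It had 4 to 102 reads in each of the 16 libraries, or 0.239 to 4.34 CPM, and 0 reads in the low-complexity libraries, where 3 reads would have been 20.2 and 0.504 CPM. Its average change of -0.41 (SE 0.73) has an interval from 0.260-fold to 2.16-fold, the widest of the 10. Its pairs differed in both directions. At day 4 replicate 3 had 51 reads alone and 4 with neurons, or 2.34 CPM (exact Poisson 95% counting interval 1.74 to 3.07) and 0.239 CPM (0.0650 to 0.611), while at day 2 replicate 2 had 60 reads alone and 97 with neurons, or 1.68 and 4.34 CPM.

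**Figure D3:**
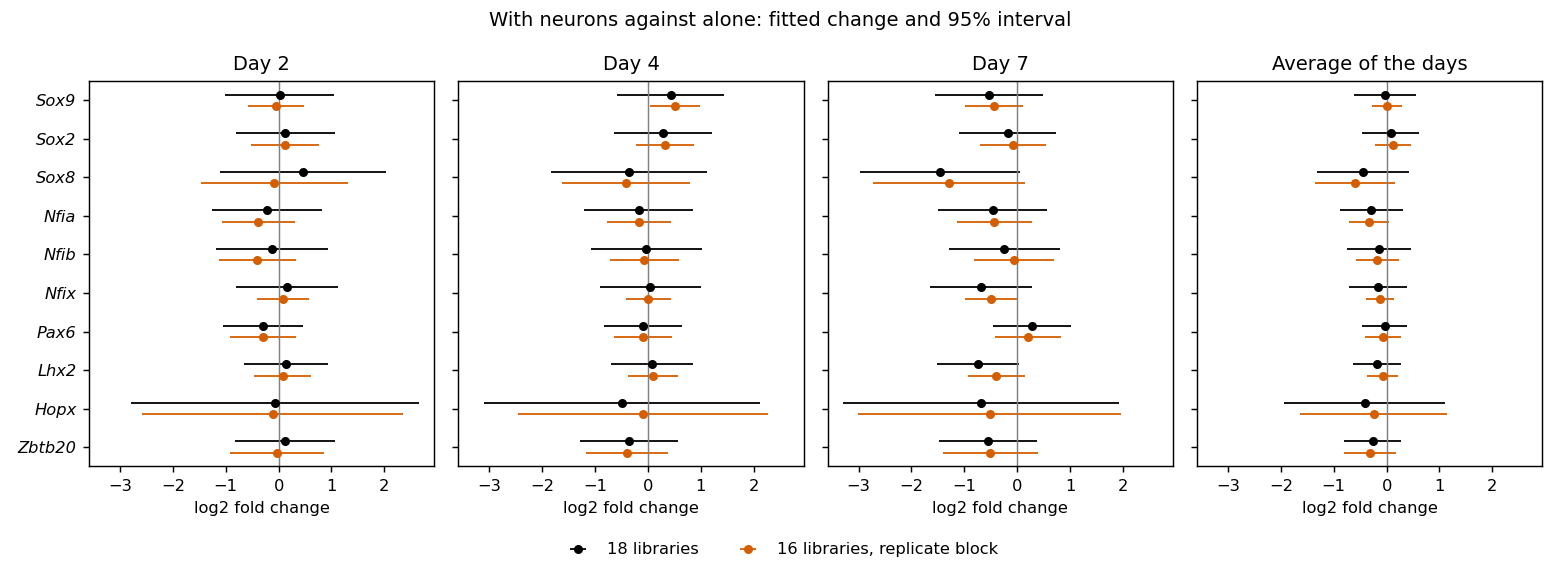
Fitted log2 fold change (with neurons against alone) and 95% interval of each factor at each day and over the average of the days, from 18 libraries and from 16 libraries with the replicate number as a block. In the fits of 18 libraries all intervals include 0, and with 16 libraries and the block the exception is Sox9 at day 4, at 0.51 (0.05 to 0.98), with an adjusted p of 1.00.

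At day 7 the 10 factors leaned to lower values in the co-culture. Of the 10, 7 were lower in 3 of 3 pairs, namely Sox9, Sox8, Nfia, Nfix, Lhx2, Hopx and Zbtb20, against 15.8% of tested genes, and 1 was higher, against 14%. At day 2 the counts were 1 lower (Nfia) and 1 higher (Nfix), against 8.48% and 15.2% of genes. At day 4 they were 1 lower (Sox8) and 1 higher (Sox9), against 14.8% and 10.7%. The 7 day 7 factors were lower in the 2 of 2 pairs left without replicate 1, whose co-culture was a low-complexity library, where 23.4% of genes were lower, and 1 factor was higher, where 30.9% were. The 7 were also the same under median-ratio and upper-quartile scaling. The median fitted change of the 10 at day 7 was -0.54, against 0.0041 over all genes, with 9 of 10 below 0. With 16 libraries and the replicate block it was -0.44, against -0.02, and again 9 of 10 were below 0. The factors share libraries and are not independent of each other, and no test was made over the group.

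Other genes leaned lower at day 7 as well, none of them called. Of the paralogues of the factors, 5 of 6 had fitted values below 0, with a median of -0.84. In the blocked fit of 16 libraries these were 7 of 7 and -1.07. Of the other regulators of the lineage it was 17 of 24 in both fits, with medians of -0.29 and -0.37. Oligodendrocyte factors were below 0 in 4 of 5, with a median of -0.88, while the summed oligodendrocyte markers were higher with neurons in each pair. Markers of microglia, neurons and fibroblasts leaned higher in the same comparison, again with no call. The microglia markers had fitted values above 0 in 10 of 10, with a median of 2.13 (in the blocked fit 1.54, again 10 of 10), the neuron markers in 9 of 10, with a median of 1.45 (0.95, 11 of 12), and the fibroblast and meningeal markers in 7 of 7, with a median of 0.95 (0.88). Summed microglia markers were 3.02, 216 and 8.17 CPM alone and 114, 434 and 5.65 CPM with neurons in replicates 1, 2 and 3 at day 7, with 5, 0 and 2 of the 10 markers at 0 alone and 2, 0 and 6 with neurons. Summed neuron markers were 158, 296 and 193 CPM alone and 292, 203 and 222 CPM with neurons, with 6, 5 and 7 of 14 at 0 alone and 10, 1 and 8 with neurons. Summed fibroblast and meningeal markers were 29.1, 34.8 and 91.96 CPM alone and 196, 106 and 65.8 CPM with neurons, with 1, 2 and 0 of 8 at 0 alone and 2, 0 and 1 with neurons. In replicate 3 the microglia and fibroblast sums, and in replicate 2 the neuron sum, were lower in the co-culture than alone. Summed endothelial and mural markers were 129, 401 and 178 CPM alone and 42.0, 145 and 207 CPM with neurons. Summed astrocyte markers were 1980, 2192 and 4216 CPM alone and 1816, 2654 and 5175 CPM with neurons. The part of these cells in the lower values of the factors was not tested.

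**Figure D4:**
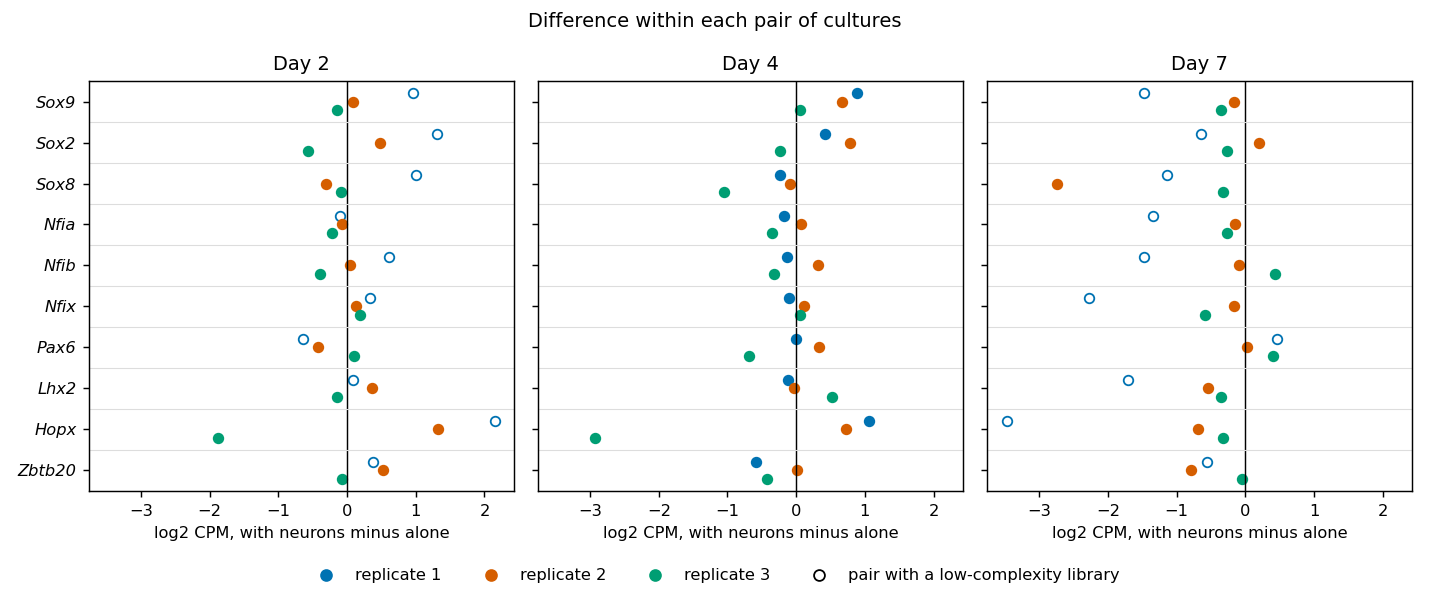
Difference in log2 CPM (with neurons minus alone) of each factor within each of the 9 pairs, by day. Points are pairs coloured by replicate number, and open points are the 2 pairs with a low-complexity library. At day 7 the points of 7 factors lie left of 0 in all 3 pairs, and the lowest filled point is Sox8 in replicate 2, at -2.75.

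Time in culture gave no call in the edgeR fit of group means of all 18 libraries either. Between day 7 and day 2, 0 of 10 factors (and 0% of genes) were called in astrocytes alone, with a median log2 change of 0.13, and 0 of 10 (0%) with neurons, with a median of -0.36 against 0.03 over all genes and 8 of 10 below 0. The blocked fit of 16 libraries gave this last median as -0.11, against 0.06, and 5 of 10 were below 0. DESeq2 called 242 of 16539 genes in this comparison with neurons and 3 in astrocytes alone, with 0 of the 10 factors in each. With the replicate block and all 18 libraries, edgeR called 1 of 16539 genes with neurons and 0 in astrocytes alone. The blocked fit of 16 libraries called 17 of 17092 genes in each culture, and 0 of the 10 factors. Lhx2 with neurons had the smallest unadjusted p of the 10, with a change of -0.85 (SE 0.37) and an interval from 0.323-fold to 0.952-fold. Without the low-complexity libraries this change was -0.52 (SE 0.33), an interval from 0.431-fold to 1.13-fold. The difference of the co-culture effect between days was called for 0 of 10 factors, and 0% of genes, in each of the 3 comparisons of days. In the blocked fit of 16 libraries it was called for 14 to 23 of 17092 genes and again 0 of 10 factors.

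Levels of several factors differed more between dates than between partners. The median absolute log2 difference of Sox9 was 0.17 between partners, which share a date, and 0.60 between libraries of the same group from different dates. The values were 0.30 and 1.37 for Sox8, 0.18 and 0.59 for Nfia, and 0.13 and 0.41 for Nfix, against 0.39 and 0.58 for the median of all genes. For Lhx2 they were close, at 0.36 and 0.39. These are medians over 7 pairs of partners and 14 pairs within groups.

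A test of the replicate number, added after these values were seen, called 4 of the 10 factors, against 5.76% of genes. These were Sox9 (adjusted p 0.00679 in edgeR), Nfia (0.0252), Sox2 (0.0341) and Nfix (0.0424). With the 16 libraries 2 were called, Sox9 (0.00479) and Nfix (0.0435), against 8.93% of genes, while Nfia and Sox2 had adjusted p of 0.0557 and 0.0743. Sox9 had medians of 96.0, 108 and 179 CPM in replicates 1, 2 and 3 of the 16 libraries, and the lowest value of replicate 3, 153 CPM, came below the highest of replicate 2, 154 CPM. Its log2 difference between replicates 3 and 1 was 0.97 (SE 0.19), or 1.96-fold. Nfix had medians of 135, 195 and 195 CPM, and was higher in replicate 2 than in replicate 1 by 0.65 (SE 0.17). Lhx2 had 62.2 ± 9.90 CPM (SD, n = 6) in replicate 3 against 88.4 ± 17.3 CPM in replicate 2, and was not called. Sox9 was called in 25 of 26 alternatives, and lost its call without replicate 3, with an adjusted p of 0.497 in edgeR. Nfia was called in 17 of the 26, Sox2 in 14 and Nfix in 9. The count of 4 fell to 1 without replicate 1 or replicate 2 as a whole, and to 1 when the astrocytes alone of replicate 1 or 3 at day 2, or of replicate 3 at day 4, were left out. It was 2 when any of 6 other libraries was left out, namely replicates 1 and 3 of the day 2 co-culture, replicates 1 and 2 of the day 4 co-culture, and the astrocytes alone of replicate 1 at day 4 and of replicate 3 at day 7. The calls over all genes changed too. They were 953 of 16539 with all 18 libraries and 1098 of 16544 without replicate 1. Without replicate 2 they were 201 of 16667, and without replicate 3 they were 156 of 16746. With any of the single libraries named here left out, 568 to 816 genes were called.

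**Figure D5:**
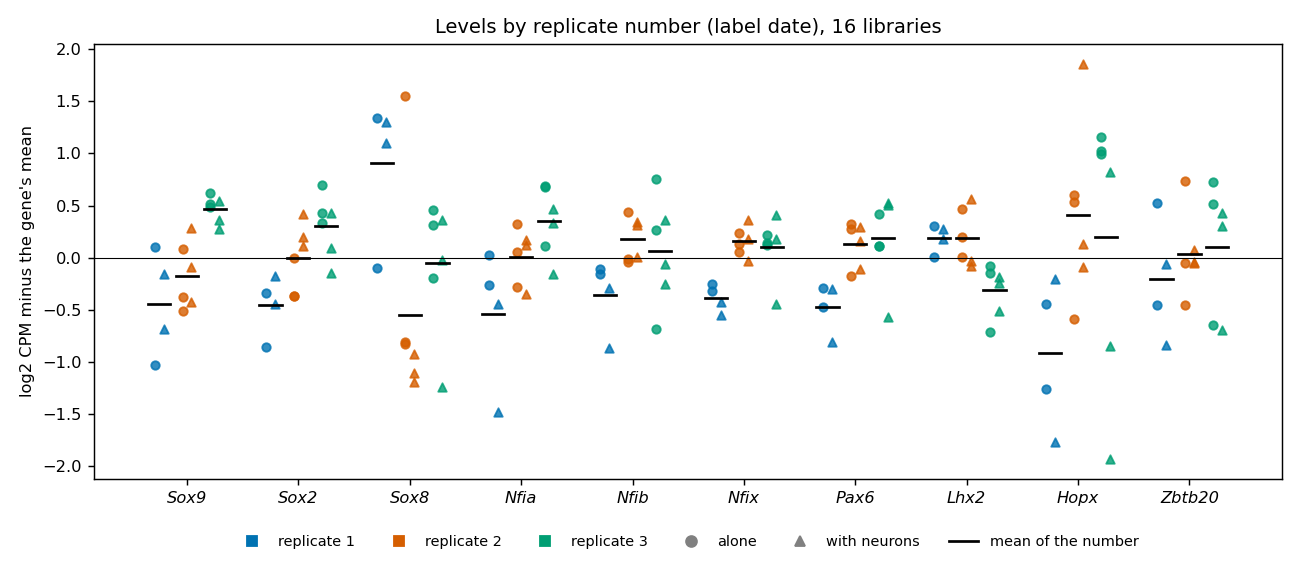
Log2 CPM of each factor minus its own mean in the 16 libraries, coloured by replicate number, which stands for a date in the labels. Sox9 is highest in replicate 3, with a median of 179 CPM against 96.0 and 108 CPM in replicates 1 and 2, and Sox8 is highest in replicate 1, with 75.5 CPM against 17.8 and 36.4 CPM.

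Several astrocyte genes also differed between the dates. Of 12 astrocyte genes placed downstream of SOX9 and NFI factors, all tested, 7 were called between dates with 18 and 7 with 16 libraries, against 5.76% and 8.93% of all genes. The largest log2 differences among the 7, from the 16 libraries, were in Gfap, the intermediate filament of astrocytes, which was higher in replicate 3 than in replicate 1 by 3.72 (SE 0.28) on the log2 scale, and in Mmd2, by 3.49 (SE 0.39). The glutamate transporter Slc1a2 was higher in replicate 2 than in replicate 1 by 2.28 (SE 0.50), and the water channel Aqp4 higher in replicate 3 than in replicate 1 by 1.67 (SE 0.34). Of 24 other regulators of the lineage, 3 were called with 18 libraries, Id4, Thra and Id3, which is also in the first list, and 4 with 16, when Hey1 was added, which with so few genes is not far from those shares. Of 13 paralogues of the factors, 6 were tested and 2 called, Sox21 and Pax2, and with 16 libraries Sox1 was called too. Transcription factors of neurons (0 of 7 tested) and of oligodendrocytes (0 of 5 tested) had no call.

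Markers of cell types moved with the date as well. The astrocyte markers summed to medians of 1605, 2471 and 4840 CPM in replicates 1, 2 and 3. Of the 10, 8 were called between dates in the 16 libraries, where 8.93% of all genes were called. Of these, Slc1a3, Slc1a2, Gfap, Gja1 and Aqp4 are also in the downstream list, so their calls there and here are the same. The microglia markers summed to medians of 36.1, 189.6 and 6.83 CPM, with 8 of 10 called, a range from 2.70 to 434 CPM, and up to 6 of the 10 at 0 in a library of replicate 3. The part of these cells in the differences between dates was not tested. Between co-culture and astrocytes alone, 0 of 12 downstream genes, 0 of 24 other regulators, 0 of 6 paralogues, 0 of 7 neuronal and 0 of 5 oligodendrocyte factors were called at any day. At day 4 the downstream genes had 10 of 12 fitted values above 0, with a median of 0.24 against -0.01 over all genes, and at day 7 7 of 12, with a median of 0.32 against 0.0041, which became -0.13 with 16 libraries and the block. Of the related genes Sox1 had 23.8 to 59.0 CPM over the 16 libraries, Sox3 at most 0.749 CPM and Lhx9 0 to 9 reads.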

How the data were processed

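Total RNA of 18 libraries was depleted of ribosomal RNA and per the labels' protocols, made into low-input SMARTer libraries. Read counts by gene were deposited by the authors, made with Subread and featureCounts on mm9, per the submitters' processing notes. Versions and strand use: not given in the sources used here. Reads of overlapping genes may therefore be mixed. A further 17 columns, of correlations, were not used. Symbols came from RefSeq (GRCm38.p6, names only; 24191 of 26301 IDs), and exon lengths and overlaps from GENCODE M21 (GRCm38), which differs from mm9.

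Counts were analysed in R 4.3.3 with the quasi-likelihood test of edgeR 4.0.16 on 6 group means of all 18 libraries, with TMM scaling, filterByExpr and Benjamini-Hochberg adjustment over 16539 genes, called at an adjusted p under 0.05. Log2 CPM used a prior count of 2. Alternatives were DESeq2 1.42.0, other scalings, no filter, robust fitting, only the groups compared, a replicate block and leaving out replicates or libraries. The 16 libraries (those with a read in at least 85% of tested genes) and the test between dates were chosen after seeing the data. Procedures were tested on simulated data. The members and lists were chosen with earlier results of these data known.

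Replicate numbers pair the samples, since the labels give each number a date. Deviations from group means correlated at 0.108 to 0.469 in the 9 pairs of partners, and at -0.386 to 0.0781 in 90 pairs of other numbers and groups. All 10 factors were named whatever their result, with the 2 genes most like each in profile, up to 4 called genes of each list, and related genes fixed by name.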

Additional observations from a re-analysis of the deposited data

Results flagged for a closer look

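For 2 factors, Sox9 and Nfix, all pairs of a day lay on the same side of 0, and all pairs of another day on the other side. Sox9 was higher in 3 of 3 co-cultures at day 4, with a median log2 difference of 0.67, and lower in 3 of 3 at day 7, with a median of -0.35. The interaction test gave -0.96 (SE 0.69, adjusted p 1.00 in edgeR), and -0.95 (SE 0.34, adjusted p 1.00) with 16 libraries and the replicate block. Nfix was higher in 3 of 3 at day 2, with a median of 0.19, and lower in 3 of 3 at day 7, with a median of -0.59. Its interaction was -0.84 (SE 0.65, adjusted p 0.957), and -0.58 (SE 0.33, adjusted p 1.00) with 16 libraries and the block. Under upper-quartile scaling neither gene was higher in 3 of 3 pairs. Each day holds 3 pairs, and replicate 1 includes a low-complexity library at day 2 and at day 7.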

How the results depend on the processing

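The count of factors called was 0 in all 9 comparisons of cultures and days under every alternative run, including the replicate block, with and without the low-complexity libraries; the paired fit (replicate block) changed no call. At day 7 the replicate block gave unadjusted p of 0.0413 for Sox9, 0.0209 for Sox8 and 0.0160 for Nfix, with adjusted p of 0.564 to 0.567 in edgeR; 1438 of 16539 genes were below 0.05 unadjusted in that fit. Over the alternatives of 6 comparisons, 142 fitted changes of single factors, none of them called, had the other sign, 45 in the day 2 comparison and 8 at day 7. Between the dates, 4 factors were called, against 2 with 16 libraries. Leaving out a replicate or a library gave 0 to 4, with 0 without replicate 3, 1 without replicate 1, 1 without replicate 2, and 1 when a single library of astrocytes alone (day 2 replicate 1, day 2 replicate 3 or day 4 replicate 3) was dropped; the cause was not tested. Of all genes, 156 of 16746 were called between the dates without replicate 3, against 953 of 16539 with all 18 libraries. The counts were 1098 of 16544 without replicate 1 and 201 of 16667 without replicate 2. Upper-quartile scaling moved the median of all genes by -0.15 log2 at day 7 and -0.11 in the average. Under it, 0 factors were higher in 3 of 3 pairs at days 2, 4 and 7 (1 each by TMM), and 2, Sox8 and Zbtb20, were lower at day 4 (1 by TMM). Median-ratio scaling left 0 higher at day 7. All 20 genes named as most alike were the same with a prior count of 0.5. The library with 0 to 19 reads of each factor is limited by few reads outside 1 ID, which held 92.5% of its 3242459 reads.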
